A study of Mus musculus with 8 samples.

Results

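The tumour necrosis factor (TNF) ligand superfamily and its receptors were followed in the mouse aorta. Every gene whose symbol was Tnf or began with Tnfsf or Tnfrsf and a digit was taken, which gave 32 of the 21859 genes in the count files, 12 ligands and 20 receptors. The rule used symbols and no measured value. One further symbol, Tnfsfm13, begins alike but names a read-through transcript of a pair of the ligands and was not taken. Total RNA of whole aortas was sequenced from 4 ApoE-/- mice, which lack apolipoprotein E, and 4 wild-type (WT) mice. All 8 mice were male, 40 weeks old and fed a normal chow diet, and ApoE-/- was the only allele that differed by the labels. The deletion is present in every cell of the mouse, and aortas were taken whole, so vessel wall and any lesion were sequenced together. Each mouse gave 1 library, and the libraries were compared by genotype.

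The ligands of this superfamily are trimeric proteins, most of them made at the cell surface and some shed from it. They bind receptors with cysteine-rich repeats, which recruit TRAF adaptors and activate NF-kappaB or, where the receptor carries a death domain, can start apoptosis or necroptosis. In the artery wall the superfamily is known for TNF-alpha, which makes endothelium adhesive for leukocytes, and for RANKL, RANK and osteoprotegerin, the ligand, receptor and soluble decoy that control osteoclasts in bone and are studied in vascular calcification. Other members carry costimulatory signals between antigen-presenting cells and T cells, or survival signals to B cells.

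Read pairs counted on genes numbered 23240995 to 23940156 per library in ApoE-/- mice and 18375898 to 21664598 in WT mice. They were 32.3% to 35.6% of all pairs in the files of ApoE-/- mice and 27.9% to 30.2% in those of WT mice, without overlap, and the part of this difference in the levels was not tested. Levels are given in CPM, counts per 1000000 read pairs on genes after TMM scaling, and levels of different genes are compared only per kb of exon. Apoe, the deleted gene, was at 14.7 to 36.3 CPM in ApoE-/- mice and 536 to 857 CPM in WT mice, so each library carried the genotype of its label. The difference was -4.83 on the log2 scale (SE 0.37, adjusted p = 0.0141 by the quasi-likelihood test of edgeR with Benjamini-Hochberg adjustment). Smooth muscle markers were abundant in all libraries, at a summed 4708 to 19456 CPM in ApoE-/- mice and 10496 to 19819 CPM in WT mice. The lowest of these values was that of ApoE-/- mouse 1, which also lay at one end of the first principal component (-66.0). This component held 79.3% of the variance of the 500 most variable genes, and ApoE-/- mouse 2 lay at its other end (58.1). On the second component (12.8% of the variance) all ApoE-/- mice were below 0 and all WT mice above 0.

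Of the 32 genes, 26 passed the filter on low counts and were tested with edgeR, 9 ligands and 17 receptors. The other 6 were tested by edgeR without the filter and, except Tnfsf4, given an adjusted p by DESeq2, and neither called any of them. A single one, the receptor gene Tnfrsf9, was past the threshold of 0.05 on the adjusted p by edgeR and was higher in ApoE-/- mice. Over all 15077 tested genes 0.371% were higher by this rule and 0.0929% lower, and no member was lower. In 9 of the 26 tested members every ApoE-/- mouse was above every WT mouse, against 5.41% of all tested genes. The opposite arrangement was met by 0 members and by 3.3% of all tested genes. At an unadjusted p under 0.05, edgeR had 10 members higher and 0 lower, beside 7.19% of tested genes higher. DESeq2 with the same adjustment called 7 members higher, beside 2.84% of the genes it tested, and called 0 lower. A log2 fold change above 0 was found for 21 of the 26, beside 58.0% of all tested genes, and the median was 0.42 for the members against 0.05 for all tested genes. Tnfsf11 passed the filter on low counts, which asked for 4 mice, through the ApoE-/- mice alone. Tnf, Tnfsf8 and Tnfrsf9 passed it with 4 ApoE-/- mice and 1 WT mouse each. That these 4 members were higher follows in part from the filter, and the counts of members that include them are descriptions.

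**Figure D1:**
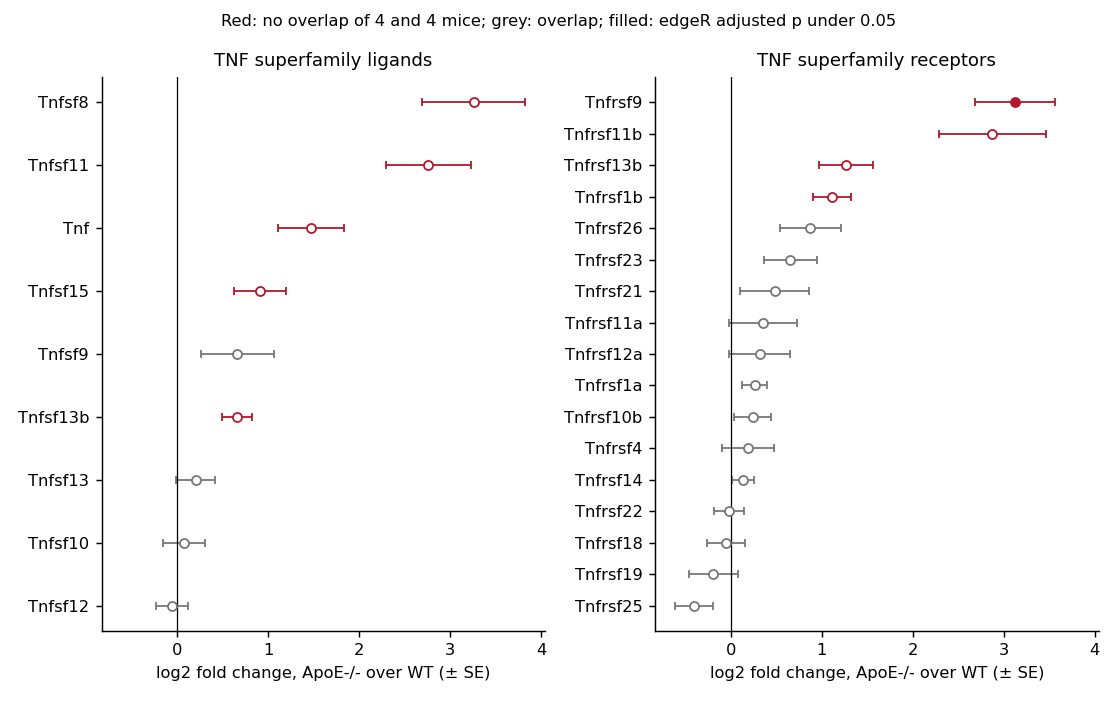
Log2 fold change of each tested member, ApoE-/- over WT, with its standard error (x axis), ligands on the left and receptors on the right. Red marks members whose 4 ApoE-/- and 4 WT mice did not overlap and a filled point an edgeR adjusted p under 0.05, which Tnfrsf9 alone has. The 9 red members are all to the right of 0, and the remaining members lie between -0.40 and 0.88.

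Sequence upstream of the start sites is shown for members in which all ApoE-/- mice were above all WT mice and a short motif was matched, so that the motifs can be read directly. The 250 bases before each start came from RefSeq (GRCm38.p6) and were found for 25 of the 32 members, with 29 start sites, and Tnfrsf11b was among those not found. Of the other 8 members without overlap, Tnfsf8, Tnfsf15 and Tnfrsf13b held none of the 4 motifs sought, and their sequence is not shown. In the Tnf promoter, on the minus strand at chr17:35202008-35202257, capitals mark TATAAA at -29 to -24 and CCGCCC at -49 to -44, counted from the start site. In the Tnfsf11 promoter, on the minus strand at chr14:78308044-78308293, they mark TTTATA, which is TATAAA on the opposite strand, at -32 to -27. In the Tnfrsf1b promoter, on the minus strand at chr4:145246871-145247120, they mark CCGCCC at -67 to -62 and at -57 to -52.
Tnf: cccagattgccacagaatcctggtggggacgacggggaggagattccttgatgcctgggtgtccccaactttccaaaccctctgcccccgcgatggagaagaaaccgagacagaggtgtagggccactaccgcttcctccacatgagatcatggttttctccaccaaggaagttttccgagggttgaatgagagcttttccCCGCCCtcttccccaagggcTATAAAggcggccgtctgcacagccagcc
Tnfsf11: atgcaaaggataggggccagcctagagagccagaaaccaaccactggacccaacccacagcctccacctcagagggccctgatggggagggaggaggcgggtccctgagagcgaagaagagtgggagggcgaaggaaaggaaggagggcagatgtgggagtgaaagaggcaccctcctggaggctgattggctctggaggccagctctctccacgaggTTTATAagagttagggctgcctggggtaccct
Tnfrsf1b: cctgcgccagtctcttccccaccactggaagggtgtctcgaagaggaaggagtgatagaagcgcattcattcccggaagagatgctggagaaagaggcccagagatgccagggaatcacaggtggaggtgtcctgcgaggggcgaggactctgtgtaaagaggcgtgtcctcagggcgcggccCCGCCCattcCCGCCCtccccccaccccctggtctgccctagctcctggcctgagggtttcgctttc

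Tnfrsf9 has 2 start sites in RefSeq, and 30 bases are printed around each match before the second of them, on the plus strand. Overlapping matches to the kappaB consensus, the binding motif of NF-kappaB, lay at -43 to -33 (chr4:150927946-150927975), and TGAGTCA, the motif of AP-1, at -15 to -9 (chr4:150927969-150927998). Tnfsf13b, which also has 2 start sites, held TGAGTCA at -127 to -121 from the second (chr8:10006494-10006523, plus strand), which is downstream of the first. Of the 250 bases before the second start, 166 in Tnfsf13b and 81 in Tnfrsf9 lie in an exon. Capitals mark the matches.
Tnfrsf9 kappaB consensus: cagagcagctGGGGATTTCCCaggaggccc
Tnfrsf9 TGAGTCA: gaggccctgctcagtTGAGTCAcaggtcct
Tnfsf13b TGAGTCA: gcttgtctggagTGAGTCAgtctgaacccc

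Each motif was sought on both strands. The kappaB consensus was in 3.9% of the 32851 RefSeq mouse promoters of this length, or in 4.46% of the 27025 genes that have one, and, among the 25 members with a promoter, in those of Tnfrsf9 and Tnfrsf8. TGANTCA was in 6.75% of all promoters (7.82% of genes) and in 5 of the 25 members, namely Tnfrsf8, Tnfrsf9, Tnfsf13, Tnfsf13b and Tnfsf14. TATAAA was in 12.4% of all promoters (14.3% of genes) and in 5 members, Tnf, Tnfsf11, Tnfsf18, Tnfrsf17 and Tnfrsf23. GGGCGG, the GC box, was in 32.7% of all promoters (35.4% of genes) and in 12 members. These are matches of letters, and no binding was measured here. Which of the 2 starts of Tnfrsf9 and of Tnfsf13b was used in the aorta was not measured either.

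Among the ligands, 5 had all ApoE-/- mice above all WT mice, and edgeR called 0 of them (5 at an unadjusted p under 0.05, 3 by DESeq2). Tnfsf8 encodes CD30L, a membrane ligand of activated lymphocytes, and was at 2.56, 1.27, 5.10 and 3.34 CPM in ApoE-/- mice 1 to 4 and at 0.459, 0.0936, 0.277 and 0.431 CPM in WT mice 1 to 4. These levels rest on 29 to 117 read pairs per ApoE-/- library and 2 to 10 per WT library. The log2 fold change was 3.26 (SE 0.56), with an adjusted p of 0.0526 by edgeR and 5.51e-06 by DESeq2. Its receptor gene Tnfrsf8, which encodes CD30, did not pass the filter, with 3 to 11 pairs per library (adjusted p = 0.980 by edgeR without the filter and 0.994 by DESeq2).

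Tnfsf11, the gene of RANKL, was at 0.731, 0.481, 0.653 and 1.56 CPM in ApoE-/- mice and at 0.138, 0.0936, 0.111 and 0.144 CPM in WT mice. Its read pairs numbered 18, 11, 15 and 36 in the former and 3, 2, 2 and 3 in the latter. All WT libraries were therefore at or near the level of 3 counts, and the sum over mice differed 7.02-fold (exact 95% interval 3.63 to 15.2, for counting error only). The log2 fold change was 2.76 (SE 0.47), with an adjusted p of 0.0526 by edgeR and 0.00293 by DESeq2.

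Tnf itself, the founding ligand, was scarce in both genotypes, at 0.690, 0.787, 0.958 and 0.955 CPM in ApoE-/- mice and 0.367, 0.468, 0.222 and 0.144 CPM in WT mice. The groups were separate, on 17 to 22 pairs per library against 3 to 10. By edgeR its log2 fold change was 1.47 (SE 0.37, adjusted p = 0.124), and DESeq2 gave an adjusted p of 0.0629. Neither test called it.

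Tnfsf13b encodes BAFF, a survival factor of B cells, and was measured on 142 to 375 pairs per library. ApoE-/- mice had 9.82, 13.2, 11.6 and 16.3 CPM and WT mice 7.99, 8.19, 7.87 and 8.23 CPM, so that the WT mice lay within 1.05-fold of each other. Its log2 fold change was 0.66 (SE 0.17), with an adjusted p of 0.127 by edgeR and 0.0265 by DESeq2, whose call was lost in 7 of the 8 fits without 1 mouse. Tnfsf15, the gene of TL1A, a ligand made by endothelium among other cells, was at 2.48, 2.58, 5.01 and 3.56 CPM against 1.42, 2.29, 1.94 and 1.58 CPM. The nearest mice of the 2 genotypes were close, and with upper-quartile factors in place of TMM they overlapped. Its log2 fold change was 0.91 (SE 0.29, adjusted p = 0.237 by edgeR and 0.113 by DESeq2).

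The genotypes overlapped for the other 4 tested ligands. Tnfsf9, the gene of 4-1BBL, ranged from 0.481 to 1.22 CPM in ApoE-/- mice and from 0.328 to 0.780 CPM in WT mice, with a log2 fold change of 0.66 (edgeR adjusted p = 0.647). TRAIL (Tnfsf10), TWEAK (Tnfsf12) and APRIL (Tnfsf13) had log2 fold changes of 0.08, -0.06 and 0.20, all with edgeR adjusted p above 0.8. Tnfsf10 and Tnfsf12 had the highest levels per kb of all ligands, at 4.45 to 7.89 and 4.69 to 6.24 CPM per kb in ApoE-/- mice, and their ranges overlapped. Exons of Tnfsf12 and Tnfsf13, which lie 466 bases apart, are also part of Tnfsfm13 on the same strand, so counts of these genes are uncertain. OX40L (Tnfsf4), LIGHT (Tnfsf14) and GITRL (Tnfsf18) did not pass the filter, and edgeR without it gave adjusted p of 0.680, 0.610 and 0.787. Tnfsf4 had 5 pairs over the 4 ApoE-/- libraries and 1 over the 4 WT libraries, with 0 in 3 of the latter, where 3 counts would be 0.138 to 0.166 CPM. Tnfsf14 had 41 and 18 pairs in all and Tnfsf18 had 23 and 13.

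**Figure D2:**
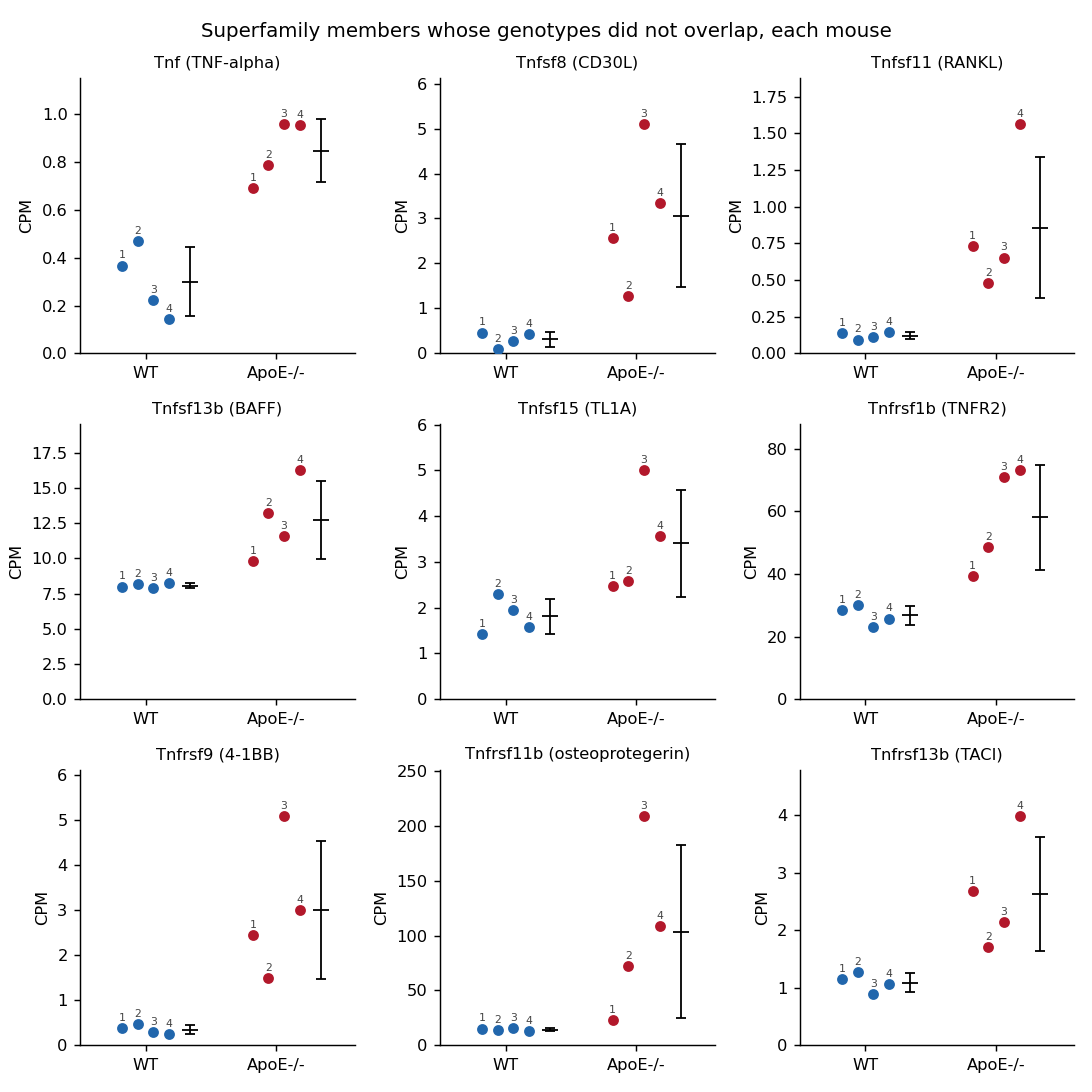
Level in CPM (y axis, from 0) of the 9 members without overlap, 1 panel per gene, with each mouse as a point numbered by replicate and the mean ± SD of 4 mice beside it. ApoE-/- mouse 3 or 4 was the highest in every panel and mouse 1 or 2 the lowest of that genotype. For Tnf, Tnfsf8, Tnfsf11 and Tnfrsf9 the WT values rest on at most 10 read pairs in each library.

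Tnfrsf9 encodes 4-1BB, a costimulatory receptor that T cells and other leukocytes display once activated. It was at 2.44, 1.49, 5.10 and 2.99 CPM in ApoE-/- mice (3.00 ± 1.53, SD, n = 4) and at 0.367, 0.468, 0.277 and 0.239 CPM in WT mice (0.338 ± 0.102, SD, n = 4). The lowest ApoE-/- mouse was above the highest WT mouse, on 34 to 117 pairs per library against 5 to 10. Tnfrsf9 rose by a log2 value of 3.13 (SE 0.44), with an adjusted p of 0.0381 by edgeR and 3.87e-07 by DESeq2. The edgeR call was lost when any 1 mouse was left out other than ApoE-/- mouse 1 or 2 (highest adjusted p 0.169), whereas DESeq2 kept it in all 8 of those fits (highest adjusted p 4.22e-05). Per kb, Tnfrsf9 was 1.21 to 1.98 times the level of its ligand gene Tnfsf9 in ApoE-/- mice and 0.215 to 0.677 times in WT mice.

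Tnfrsf11b, the gene of osteoprotegerin, had the widest spread of the members. ApoE-/- mice 1 to 4 had 22.7, 72.3, 209 and 109 CPM and WT mice 14.9, 13.4, 15.2 and 12.8 CPM, that is 103 ± 79.0 and 14.1 ± 1.16 CPM (SD, n = 4 each). The ApoE-/- mice differed 9.21-fold among themselves and the WT mice 1.19-fold, and mouse 1 was the nearest to the WT level. The log2 fold change was 2.88 (SE 0.58), with an adjusted p of 0.0748 by edgeR and 1.20e-05 by DESeq2. Without ApoE-/- mouse 1 it was 3.21, with an edgeR adjusted p of 0.00621, and without mouse 3 it was 2.27, with 0.155. The 7 fits that kept mouse 1 and left out another mouse gave adjusted p of 0.101 to 0.246.

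Tnfrsf1b encodes TNFR2, the TNF receptor without a death domain that is found mainly on leukocytes and endothelium. It was at 39.4, 48.7, 71.0 and 73.2 CPM in ApoE-/- mice and 28.5, 30.1, 23.1 and 25.7 CPM in WT mice. The groups were separate, and the means of 58.1 ± 16.7 and 26.8 ± 3.08 CPM (SD, n = 4) differed 2.16-fold. Its log2 fold change was 1.11 (SE 0.21), with an adjusted p of 0.0648 by edgeR and 4.07e-04 by DESeq2. In edgeR fits without 1 mouse the adjusted p was 0.00895 without ApoE-/- mouse 1 and up to 0.221 without another. TNFR1 (Tnfrsf1a), the TNF receptor with a death domain, was at 79.2 to 116 CPM against 73.1 to 89.1 CPM, with overlap, a log2 fold change of 0.26 (SE 0.14) and an edgeR adjusted p of 0.567. The ratio of Tnfrsf1b to Tnfrsf1a per kb was accordingly 0.337 to 0.451 in ApoE-/- mice and 0.209 to 0.260 in WT mice, without overlap.

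Tnfrsf13b encodes TACI, which binds BAFF and APRIL on B cells. It was at 2.68, 1.71, 2.13 and 3.99 CPM in ApoE-/- mice and 1.15, 1.26, 0.886 and 1.05 CPM in WT mice, without overlap. Its log2 fold change was 1.27 (SE 0.30), with an adjusted p of 0.109 by edgeR and 0.0139 by DESeq2, whose call was lost in 4 of the 8 fits without 1 mouse. The other receptors of BAFF did not pass the filter, namely the BAFF receptor (Tnfrsf13c), with 40 and 18 pairs over the ApoE-/- and WT libraries, and BCMA (Tnfrsf17), with 34 and 27. Without the filter edgeR gave them adjusted p of 0.682 and 0.961.

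The remaining 13 tested receptors overlapped between genotypes, and edgeR called 0 of them (1 at an unadjusted p under 0.05, 0 by DESeq2). Tnfrsf26, a receptor gene found in mouse, came nearest, at 2.15, 3.72, 5.36 and 6.90 CPM against 2.29, 2.57, 2.60 and 2.39 CPM, where ApoE-/- mouse 1 was below all WT mice and the other 3 were above. Its log2 fold change was 0.88 (edgeR adjusted p = 0.359), and 1.11 without ApoE-/- mouse 1 (adjusted p = 0.0439), and no other mouse left out gave a call. Tnfrsf22 and Tnfrsf23, which encode decoy receptors of TRAIL, adjoin Tnfrsf26 on chromosome 7, within gaps of 6084 and 16148 bases, and had log2 fold changes of -0.02 and 0.66 (edgeR adjusted p = 0.981 and 0.448). DR6 (Tnfrsf21) was at 70.5 CPM in ApoE-/- mouse 1 and between 21.6 and 27.4 CPM in the other 7 mice. Its log2 fold change was 0.49 (SE 0.38, adjusted p = 0.751 by edgeR) with all mice and -0.0921 without that mouse. DR3 (Tnfrsf25), the receptor of TL1A, had the lowest log2 fold change of the members, -0.40 (SE 0.21, adjusted p = 0.562 by edgeR), with 3.88 to 6.91 CPM against 6.09 to 7.53 CPM. Without ApoE-/- mouse 2 its genotypes did not overlap, and DESeq2 then called it lower. For the TRAIL receptor Tnfrsf10b, HVEM (Tnfrsf14), Fn14 (Tnfrsf12a), RANK (Tnfrsf11a), TROY (Tnfrsf19), OX40 (Tnfrsf4) and GITR (Tnfrsf18), log2 fold changes lay between -0.19 and 0.36, with edgeR adjusted p of 0.769 to 0.960. Tnfrsf12a was at 15.2, 48.2, 46.4 and 40.5 CPM in ApoE-/- mice and 23.4 to 34.4 CPM in WT mice. Without ApoE-/- mouse 1 its genotypes did not overlap and its log2 fold change was 0.58 (edgeR adjusted p = 0.0706). DESeq2 then called it higher.

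**Figure D3:**
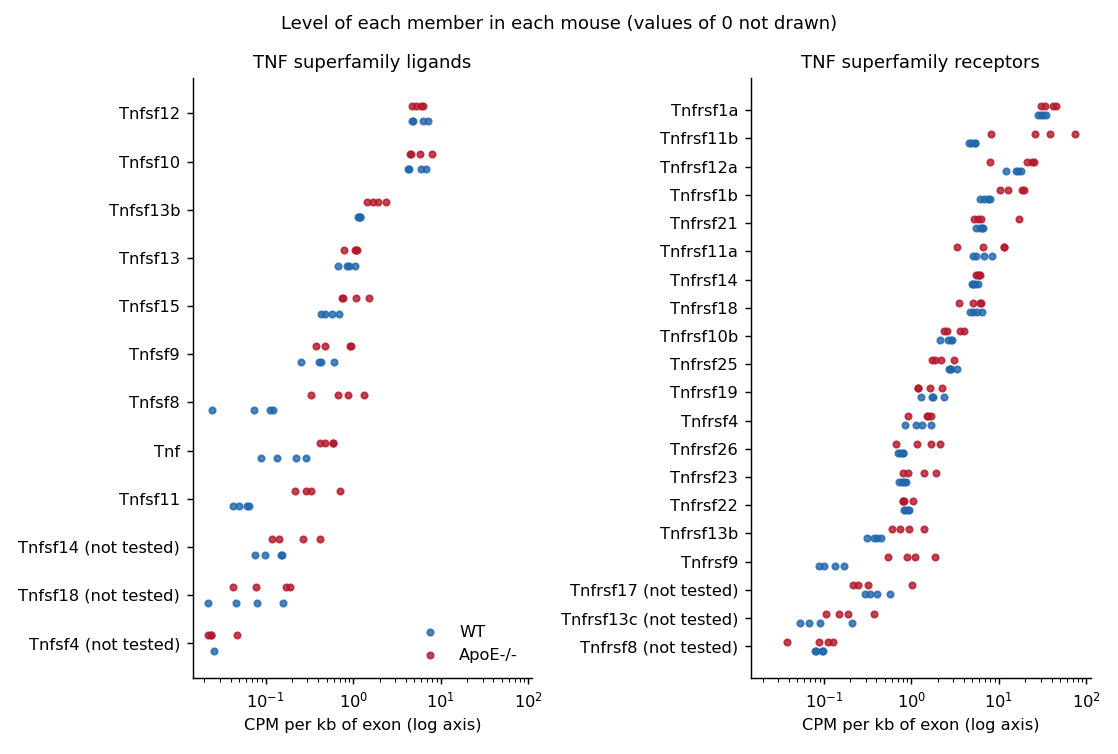
Level of all 32 members in each mouse, in CPM per kb of exon on a log axis (x axis), with ligands on the left and receptors on the right, ordered by mean level. WT mice are blue and ApoE-/- mice red, values of 0 are not drawn, and Tnfrsf1a is the highest receptor in WT mice, at 28.2 to 34.4 CPM per kb.

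Per kb, the receptors were in general more abundant than the ligands. In WT mice Tnfrsf1a led with 31.3 CPM per kb, followed by Tnfrsf12a with 15.6, and the ranges of these genes did not overlap each other or the next. Tnfrsf1b, Tnfrsf11a, Tnfrsf21, Tnfrsf18, Tnfrsf14 and Tnfrsf11b came after them, with means of 7.03 down to 5.0 CPM per kb, and each overlapped with the next. In ApoE-/- mice Tnfrsf11b had a mean of 36.7 CPM per kb, beside 37.6 for Tnfrsf1a, and ranged from 8.07 to 74.3, so that the order of this pair differed between mice. No ligand exceeded 7.89 CPM per kb in any mouse.

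The RANKL, RANK and osteoprotegerin genes were set side by side within each mouse. The ratio of osteoprotegerin to RANK was 2.45, 2.23, 6.54 and 5.81 in ApoE-/- mice and 0.778, 0.863, 0.656 and 0.894 in WT mice, which puts all ApoE-/- mice above all WT mice. RANK over RANKL went the other way, with 10.1, 53.4, 38.9 and 9.53 against 110, 132, 166 and 79.3, again without overlap. Osteoprotegerin over RANKL, the decoy over the ligand, spread from 24.7 to 254 in ApoE-/- mice and covered the WT range of 70.9 to 113. All ratios with RANKL rest on 2 or 3 WT read pairs per library. RANK itself was at 19.7 to 68.7 CPM against 30.5 to 49.4 CPM, with overlap. The separated ratios with RANK therefore repeat the differences of RANKL and of osteoprotegerin and are no further result. RANKL also passed the filter on low counts through the ApoE-/- mice alone. Of 7 osteoclast markers, 3 passed the filter and edgeR called 0 (2 at an unadjusted p under 0.05, 1 by DESeq2). The 3 tested markers had log2 fold changes of 0.49 to 4.69, all above 0. The sum over all 7 was 101 to 250 CPM in ApoE-/- mice and 57.6 to 102 CPM in WT mice, most of it from Acp5 and Ctsk, which macrophages and other cells also express.

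**Figure D4:**
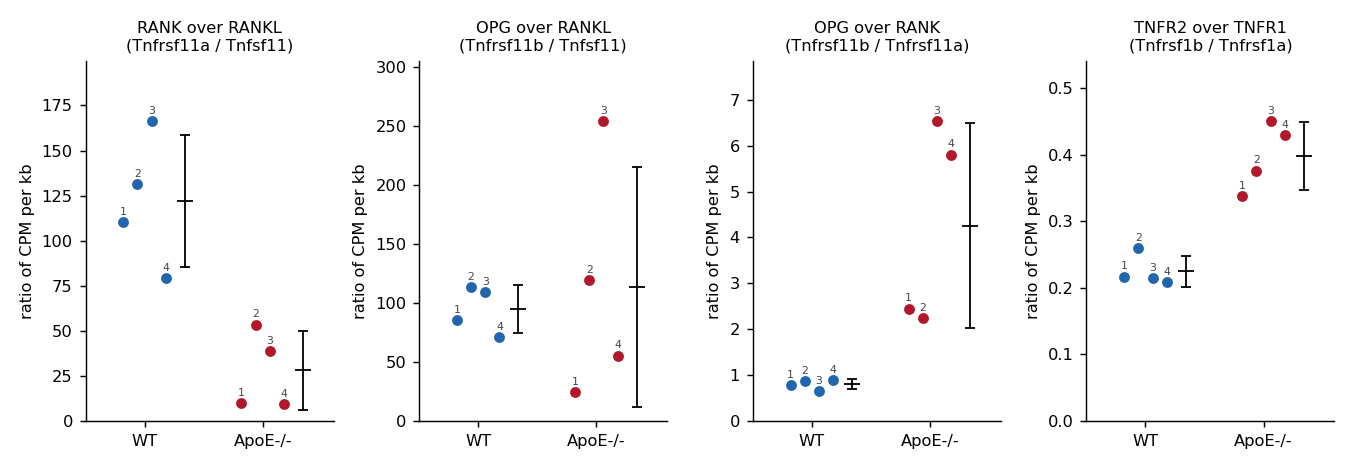
Ratio of levels per kb within each mouse (y axis, from 0) for RANK over RANKL, osteoprotegerin (OPG) over RANKL, osteoprotegerin over RANK, and TNFR2 over TNFR1, with mice as numbered points and the mean ± SD of 4 mice. Osteoprotegerin over RANK and TNFR2 over TNFR1 are higher in all ApoE-/- mice, RANK over RANKL is lower in all of them, and osteoprotegerin over RANKL overlaps. Each separated ratio holds a gene without overlap (osteoprotegerin, TNFR2 or RANKL) and repeats its difference.

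Among the ApoE-/- mice, mouse 3 was the highest for 5 of the 9 members without overlap and mouse 4 for 4, while mouse 1 was the lowest for 5 and mouse 2 for 4. In bulk tissue, more cells of a type and more RNA per cell cannot be told apart, and several lists of leukocyte markers also had higher sums in ApoE-/- mice. All 12 macrophage markers had log2 fold changes above 0, 10 of them without overlap, and edgeR called Fcgr1 (10 at an unadjusted p under 0.05, 7 by DESeq2). Their sum was 569, 1057, 1222 and 2297 CPM in ApoE-/- mice 1 to 4 and 480 to 583 CPM in WT mice, so mouse 1 lay within the WT range. The 6 B cell markers summed to 11.4 to 28.5 CPM against 4.71 to 7.76 CPM and the 8 T cell markers to 8.22 to 13.4 CPM against 5.10 to 7.66 CPM, in both cases without overlap. Of these markers edgeR called 0 (4 and 2 at an unadjusted p under 0.05, 1 and 0 by DESeq2). The 7 neutrophil markers summed to 7.83 to 17.7 CPM against 3.10 to 4.13 CPM, without overlap, and of the 3 that passed the filter edgeR called Csf3r (2 at an unadjusted p, 3 of all 7 by DESeq2). None of the defining markers of these 4 lists was at 0 in all mice of a genotype. The other leukocyte lists overlapped. The 5 plasma cell markers summed to 221 to 313 CPM against 207 to 237 CPM, and the 5 mast cell markers to 27.1 to 89.8 CPM against 27.1 to 56.5 CPM. Of both lists edgeR called 0 (0 at an unadjusted p under 0.05, 0 by DESeq2). The 6 fibroblast markers summed to 2905, 5406, 7972 and 7555 CPM in ApoE-/- mice 1 to 4 and 3354 to 3662 CPM in WT mice, where mouse 1 was again the lowest of its genotype, as it was for Tnfrsf11b. All 7 endothelium markers had log2 fold changes below 0, 2 of them without overlap, with sums of 1567 to 2456 CPM against 2240 to 2745 CPM. Of the fibroblast and endothelium markers edgeR called 0 (2 and 4 at an unadjusted p under 0.05, 1 higher and 2 lower by DESeq2). Cardiac muscle markers summed to 155 to 336 CPM in ApoE-/- mice and 393 to 660 CPM in WT mice, without overlap, and edgeR called 0 of the 7 (6 at an unadjusted p, 4 lower by DESeq2). The part of these cell types in the levels of the superfamily was not tested.

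The genes that act with the superfamily were taken as 7 lists of 73 genes, of which 67 were tested. Called by edgeR were 3 genes, all higher and all in the list of genes known to be induced by TNF. In that list 16 were tested, 9 had no overlap, and the median log2 fold change was 1.33. Over all tested genes edgeR called 0.371% higher, 5.41% had every ApoE-/- mouse above every WT mouse, and the median was 0.05. Ccl2, which encodes a chemokine that draws monocytes, rose by a log2 value of 2.15 (SE 0.25, adjusted p = 0.0355 by edgeR), from 0.942 to 1.53 CPM in WT mice to 4.62 to 7.94 CPM in ApoE-/- mice. Il6, an inflammatory cytokine gene, was at 6.58, 3.10, 5.66 and 3.52 CPM in ApoE-/- mice and, on 6, 6, 1 and 0 pairs, at no more than 0.281 CPM in WT mice (edgeR adjusted p = 0.0396). Cxcl2, which encodes a chemokine that draws neutrophils, rose by 2.24 (SE 0.34, adjusted p = 0.0434 by edgeR), on 15 to 26 pairs per library against 2 to 5. Il6 and Cxcl2 passed the filter on low counts through the ApoE-/- mice alone, so that their being higher follows in part from the filter, and the counts and the median of this list are descriptions. Each of these 3 edgeR calls was lost in 7 of the 8 fits without 1 mouse and kept without ApoE-/- mouse 1, whereas DESeq2 kept them in all 8 (highest adjusted p 0.0295, for Cxcl2). Cxcl2 was also missed by limma-voom (adjusted p = 0.0666) and by edgeR without the filter (adjusted p = 0.0547), which gave Il6 an adjusted p of 0.0362. Sele, the gene of E-selectin, was at 7.0 to 13.1 CPM against 2.33 to 3.37 CPM, with a log2 fold change of 1.53 and an adjusted p of 0.0523 by edgeR and 1.20e-05 by DESeq2. The 7 other tested genes of this list, Icam1, Cxcl10, Csf1, Sod2, Ptgs2, Mmp9 and Tnfaip8, had overlap. The remaining 5, Ccl7, Cxcl1, Tnfaip2, Tnfaip6 and Vcam1, had none. DESeq2 called these 5 higher with all mice and in all 8 fits without 1 mouse, and edgeR only without ApoE-/- mouse 1. Ccl7 was also called by limma-voom. Over the list DESeq2 called 9 genes, beside 2.84% of the genes it tested called higher. At an unadjusted p under 0.05 edgeR had 9, beside 7.19% of tested genes higher.

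Of 18 receptor adaptors and death signalling genes edgeR called 0 (1 at an unadjusted p under 0.05, 0 by DESeq2), with a median log2 fold change of 0.04 and a range of -0.20 to 0.60. The highest was Traf3, an adaptor of several receptors of the superfamily, with an edgeR adjusted p of 0.189. Of 14 NF-kappaB kinases and subunits it called 0 as well (1 at an unadjusted p, 0 by DESeq2), with a median of 0.08 and a range of -0.19 to 0.51. In that list Relb, a subunit of the noncanonical NF-kappaB pathway, had no overlap at 19.0 to 26.9 CPM against 13.6 to 16.6 CPM (log2 fold change 0.51, SE 0.14, edgeR adjusted p = 0.163), and so had Tab2, an adaptor of the TAK1 kinase, with a log2 fold change of 0.15. The 7 inhibitors all had log2 fold changes above 0, with a median of 0.25 and 0 called by edgeR (2 at an unadjusted p, 1 by DESeq2). Among them Tnfaip3, which encodes A20, was at 18.3, 23.0, 41.0 and 29.7 CPM in ApoE-/- mice and 16.1, 16.1, 13.7 and 12.5 CPM in WT mice, with a log2 fold change of 0.94 (SE 0.24) and an adjusted p of 0.138 by edgeR and 0.0217 by DESeq2, whose call was lost in 6 of the 8 fits without 1 mouse. The 3 genes of TNF shedding had a median of 0.20, with none called (0 at an unadjusted p, 0 by DESeq2). Of the superfamily genes with other names, such as Fas, Cd40 and Ltbr, 2 of 6 ligands and 7 of 8 receptors were tested, with 0 called by edgeR (3 at an unadjusted p) and 0 by DESeq2, which gave no p for Ngfr. Ngfr, the gene of the p75 neurotrophin receptor, was at 728 CPM in ApoE-/- mouse 1, at 3.54 to 59.2 CPM in the other 3 of that genotype and at 41.3 to 105 CPM in the WT group. By edgeR it differed by a log2 value of 1.42 (adjusted p = 0.802) with all mice and -1.60 without ApoE-/- mouse 1 (adjusted p = 0.356). Relt, a receptor gene of this last list, was at 2.67 to 4.56 CPM against 1.44 to 2.11 CPM, with a log2 fold change of 0.80 (SE 0.25, adjusted p = 0.219 by edgeR).

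**Figure D5:**
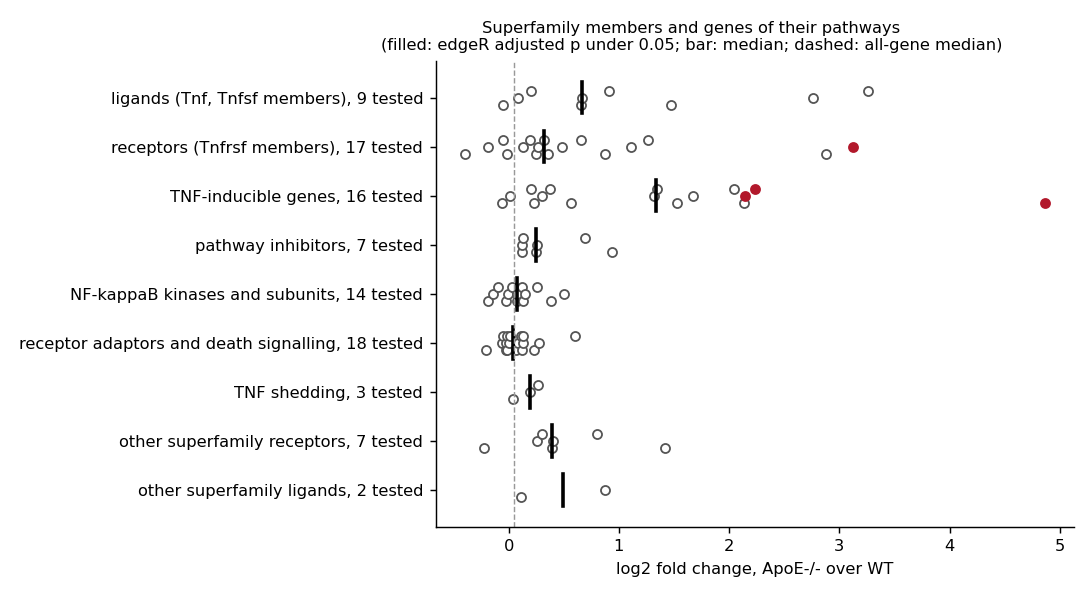
Log2 fold change, ApoE-/- over WT (x axis), of each tested gene among the ligands, the receptors and the 7 pathway lists, with filled points for an edgeR adjusted p under 0.05, a black bar for each median and a dashed line for the median of all tested genes. The filled points are Tnfrsf9 among the receptors and Ccl2, Cxcl2 and Il6 among the TNF-inducible genes, while the adaptors and the NF-kappaB genes, with medians of 0.04 and 0.08, have no filled point.

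The members are spread over 11 chromosomes, with 9 on chromosome 4 and 5 on chromosome 17, and 8 neighbouring pairs lie under 100 kb apart. Neighbours did not all share a pattern. Tnfsf8 and Tnfsf15, separated by 86195 bases on chromosome 4, were both without overlap. Tnfrsf1b and Tnfrsf8, separated by 20267 bases, were not alike in level, with 7.03 and 0.0884 CPM per kb in WT mice. OX40 (Tnfrsf4) and GITR (Tnfrsf18), 9552 bases apart, had log2 fold changes of 0.19 and -0.05.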

How the data were processed

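Whole aortas were sequenced as 1 library per mouse (4 ApoE-/-, 4 WT, by the labels). The deposited files hold, for each mouse, whole-number counts of pairs assigned to each gene by the authors, neither normalized nor pooled. TopHat2, HTSeq and the build GRCm38 (mm10) come from the submitters' processing notes, and the annotation is not given in the sources used here. Of all pairs in the files, 50.1% to 54.7% in ApoE-/- and 56.4% to 58.0% in WT libraries lay on no gene and 11.8% to 14.3% aligned to several places, and these rows were left out. Coordinates and exon lengths came from GENCODE M21 (GRCm38), in which 31 members matched by versioned identifier and Tnfsf15 under another version.

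Genes passing filterByExpr were fitted with edgeR 4.0.16 in R 4.3.3 (TMM, robust quasi-likelihood test, genotype as the only factor, two-sided), with Benjamini-Hochberg adjustment over all 15077 tested genes. The filter asked for about 0.445 CPM in at least 4 mice. A standard error is the log2 fold change divided by the root of F. DESeq2 1.42.0, limma-voom (limma 3.58.1), other scalings and filters, a replicate block and leaving out each mouse were alternatives. DESeq2 without each mouse was chosen after seeing the data. The fits were tested on simulated data with known changes, in which the share of false calls was above the threshold with edgeR, DESeq2 and limma-voom and was highest with DESeq2. The replicate numbers belong to different mice, and deviations of same-numbered mice correlated at 0.059, -0.448, 0.316 and 0.162, so they were not used as pairs.

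The members and lists were chosen with earlier results of these data known. All members were to be named, those past the threshold or without overlap with every value, and from each pathway list the genes past the threshold and up to 4 without overlap, by smallest p. Where other genes of a list are named, they were chosen after their values were seen. CPM rest on 18375898 to 23940156 pairs per library, and intervals cover counting error only.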

Additional observations from a re-analysis of the deposited data

Results flagged for a closer look

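Among the 26 tested members and Apoe, 1 mouse stood far from the other 3 of its genotype in 3 of 54 groups of 4 values, by the ratio of its gap to the range of the group, where chance gives 1 in 20 groups, or 2.7. Tnfrsf21 (DR6) was at 70.5 CPM in ApoE-/- mouse 1, and the next mouse of that genotype was at 25.7 CPM. Tnfrsf22, a decoy receptor of TRAIL, was at 4.40 CPM in ApoE-/- mouse 3, above 3.41 to 3.47 CPM in the others. Tnfsf13 (APRIL) was at 1.30 CPM in ApoE-/- mouse 1, below 1.71 to 1.79 CPM in the others. Of the members without overlap between genotypes, 0 of 9 were among these.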

How the results depend on the processing

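With 4 mice per genotype, the counts of calls depended on the tool and on single mice, while directions of the members without overlap did not change under any alternative run. Over all genes edgeR called 70, DESeq2 721, limma-voom 29 and edgeR with a replicate block 2, and leaving out 1 mouse gave 0 to 593 with edgeR and 439 to 1548 with DESeq2. Of the members edgeR called 1, DESeq2 7, limma-voom 0 and the replicate block 0, and without 1 mouse the count was 0 to 7 with edgeR and 5 to 11 with DESeq2, all higher except Tnfrsf25, called lower by DESeq2 without ApoE-/- mouse 2. The pairing of mice by number is not given by the labels, so calls lost under the block are not read as weaker effects. The largest of these edgeR counts, 593 genes and 7 members, came without ApoE-/- mouse 1, where Tnfrsf1b, Tnfrsf9, Tnfrsf11b, Tnfrsf26, Tnfsf8, Tnfsf11 and Tnfsf13b were called. Leaving out ApoE-/- mouse 3 or 4, or any WT mouse, edgeR called 0 members. Of the pathway lists edgeR called 3 genes, DESeq2 10 and the replicate block 0, and without 1 mouse the count was 0 to 10 with edgeR and 9 to 17 with DESeq2. Members without overlap numbered 7 to 13 over the alternatives. The log2 fold change of Apoe was -5.06 to -4.64 without 1 mouse, and 3 of those 8 fits missed the threshold.

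The sign turned when 1 mouse was left out for 4 members near 0 and for Tnfrsf21, which was at 0.49 (SE 0.38) with all mice. Without 1 mouse the log2 fold change ranged from -0.12 to 0.0187 for Tnfrsf22, from -0.0921 to 0.66 for Tnfrsf21, from -0.12 to 0.21 for Tnfsf10, from -0.16 to 0.10 for Tnfrsf18 and from -0.13 to 0.0702 for Tnfsf12. The cause was not tested. Over the 34 single genes, 478 of 540 alternative values kept direction and side of the threshold, 34 lost a call, 16 gained one and 12 changed sign. All 34 losses fell on Tnfrsf9, Ccl2, Cxcl2 and Il6, the only ones of these genes with an edgeR call to lose. Depth limits the values of Tnf, Tnfsf8, Tnfsf11, Tnfrsf9, Cxcl2 and Il6, with at most 10 pairs in each WT library.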
